A study of Homo sapiens with 9 samples.

Results

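The 10 genes described here encode the parts of one family of transcription factor complexes: LYL1, TAL1, the E proteins TCF3, TCF4 and TCF12, the adaptors LMO2 and LDB1, and the inhibitors ID1, ID2 and ID3. They were taken by gene symbol from 59648 genes counted by RNA sequencing in Kasumi-1. This established line comes from a human acute myeloid leukaemia with the t(8;21) translocation, whose product is the fusion protein AML1-ETO (AE, or RUNX1-RUNX1T1). Of the 10, 9 passed the filter on low counts and were tested among 14741 genes; TCF4 was below the filter. All 9 libraries come from this single cell line, infected with shRNA lentiviruses for 48 h, then held in puromycin (1 µg/mL) for another 48 h, with RNA taken on day 4. The control group (3 libraries) carried a control shRNA, the AE knockdown group (3 libraries) AE shRNAs numbered 1 to 3, and the LYL1 knockdown group (3 libraries) LYL1 shRNAs 538, 540 and 542. It is not given in the labels if the AE numbers stand for different shRNAs, nor if each library is a culture of its own; p-values therefore cover the spread among these libraries, which may be technical.

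LYL1 and TAL1 are tissue-restricted basic helix-loop-helix (bHLH) proteins of blood cells that bind DNA as heterodimers with the widely expressed E proteins, at the E-box motif. LMO2 binds the bHLH pair and LDB1, and LDB1 brings such units together on DNA, often with a GATA factor. ID proteins have the helix-loop-helix but lack the basic region, so that a dimer of an E protein with an ID protein does not bind DNA. In t(8;21) leukaemia cells, AML1-ETO has been described in a complex that holds E proteins, LYL1, LMO2 and LDB1, and the knockdowns ask how the transcriptome depends on AE and on LYL1.

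Both knockdown targets were lower in the libraries labelled for them, but not to the same degree in each. RUNX1T1, whose counts add the fusion transcript to any from the normal gene, was at 216, 223 and 212 CPM (counts per 1000000 counts of the library, after TMM scaling) in the control libraries and at 114, 136 and 87.7 CPM in AE knockdown 1, 2 and 3. It fell by 0.94 on the log2 scale with AE knockdown (SE 0.18, edgeR adjusted p = 0.00778), and the third AE library had the least left, 40.5% of the control mean. In bulk RNA, a lower level in every cell and fewer cells with the transcript cannot be told apart. Library totals ranged from 20103275 to 28039518 counts. AE knockdown 3 stood apart from the other libraries. The first principal component took 56.5% of the variance, and on it AE knockdown 3 was at 102 against 46.1 and 29.7 in the other AE libraries, and mitochondrial ribosomal RNA took 1.21% of its counts against 0.483% to 0.791% elsewhere. Of 9 tested genes of the family, 7 were farthest from the control mean in that library among the AE libraries, and a called difference whose call or size changes by over 1.5 times without it is given both ways. Among lineage markers, the 8 myeloblast genes summed to 14986 to 42568 CPM, with MPO at 11428 CPM or more in every library. The other myeloblast markers were lower than MPO. PRTN3 was at 1746 CPM or more in every library, and KIT, ANPEP, ELANE and AZU1 at 219.9 CPM or more. CD33 ran from 27.8 to 174 CPM and CD34 from 1.14 to 53.2 CPM. The 3 erythroid markers summed to 0.192 CPM at most, and the 3 fibroblast markers to 0.0998 CPM. Other sets were low but not silent. At most, the 3 B cell markers summed to 16.8 CPM (AE knockdown) and the 3 megakaryocyte markers to 3.19 CPM (LYL1 knockdown). The 3 epithelial markers reached 1.21 CPM (control). Within these sets MS4A1, PF4, KRT19 and DCN were at 0 in every library.

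LYL1 was at 172, 172 and 143 CPM in the control libraries and at 80.4, 98.4 and 43.9 CPM in the libraries with LYL1 shRNAs 538, 540 and 542. The groups did not overlap, and shRNA 542 left the least. The mean went from 163 ± 17.0 (SD, n = 3) to 74.2 ± 27.8 CPM (SD, n = 3), a log2 difference of -1.13 (SE 0.26). LYL1 passed an unadjusted threshold of 0.05, but not after adjustment over all genes tested (edgeR adjusted p = 0.527), while DESeq2, with its own size factors, put the same gene past the threshold (log2 difference -1.14, adjusted p = 0.0336). Over 21 alternative settings the adjusted p of LYL1 ran from 0.0336 to 1.00 and the log2 difference from -1.39 to -0.86, and DESeq2 gave the only call. In the AE knockdown libraries, LYL1 stood at 262, 200 and 172 CPM (mean 211 ± 46.4, SD, n = 3), so that AE knockdown 3 overlapped the control range; the log2 difference was 0.38 (SE 0.26, edgeR adjusted p = 0.308). LYL1 differed between the 2 knockdowns: its level with AE knockdown was 2.85-fold that with LYL1 knockdown (log2 difference 1.51, SE 0.26, edgeR adjusted p = 0.00553), in all of 21 alternatives.

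TAL1, the closest relative of LYL1 among the genes described here, fell with AE knockdown and was not called with LYL1 knockdown. Its counts were low throughout: 44, 69 and 39 in the control libraries, 7, 22 and 2 in AE knockdown 1, 2 and 3, and 28, 69 and 55 with LYL1 shRNAs 538, 540 and 542. On the CPM scale the control libraries were at 1.78, 2.60 and 1.64, the AE knockdown libraries at 0.250, 0.775 and 0.0962, and the LYL1 knockdown libraries at 1.07, 2.67 and 2.74. Every AE library was below every control library, with the second AE library the highest of the 3, and the LYL1 knockdown libraries spanned the control range. The 95% exact interval for counting error ran from 0.0117 to 0.348 CPM in AE knockdown 3, below the lower bound of 1.16 CPM in control 3. In AE knockdown 2 it ran from 0.486 to 1.17 CPM and so reached that bound. TAL1 fell by 2.33 on the log2 scale with AE knockdown (SE 0.55, 5.03-fold, edgeR adjusted p = 0.0161). Without control 2 the log2 difference was -2.10 and the call was lost (edgeR adjusted p = 0.0683), and without AE knockdown 2 it was -3.42. With LYL1 knockdown the log2 difference was 0.09 (SE 0.43, edgeR adjusted p = 1.00). The difference between the knockdowns also passed (log2 difference -2.42, SE 0.55, edgeR adjusted p = 0.0141), but not with limma-voom and a spread per group (adjusted p = 0.0555). Counts of TAL1 transcripts were in any case a small share: LYL1 made up 98.8% ± 0.242 (SD, n = 3) of the counts of LYL1 and TAL1 together in control, 99.8% ± 0.180 (SD, n = 3) with AE knockdown and 96.7% ± 2.35 (SD, n = 3) with LYL1 knockdown, the lowest value being 94.1% with shRNA 542. This share is of counts and does not allow for the different lengths of both transcripts.

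The 250 bases before the TAL1 start in RefSeq are shown because TAL1 was called with AE knockdown and its promoter holds the letters TGTGGT, the core bound by RUNX factors, whose DNA-binding domain AML1-ETO keeps. The window lies at chr1:47231716-47231965 on the minus strand of GRCh38.p14, and its capitals mark the 3 matches to TGTGGT, at 188, 90 and 56 bases before the start.
TAL1 promoter: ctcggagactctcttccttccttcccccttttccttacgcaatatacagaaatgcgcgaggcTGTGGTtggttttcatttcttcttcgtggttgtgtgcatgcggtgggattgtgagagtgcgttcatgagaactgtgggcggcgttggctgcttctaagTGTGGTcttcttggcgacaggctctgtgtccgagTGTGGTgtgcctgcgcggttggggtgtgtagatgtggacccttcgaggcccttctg
Searched on both strands, TGTGGT was present in 11.0% of 35116 RefSeq promoter windows of that length, and at 3 or more places in 0.0769% of them (27 windows). The cut at 3 is the number found in TAL1 itself, picked from 9 windows searched for several motifs. That share is therefore a description and no test. Of the 10 genes, 9 had a window, all but LMO2, and TAL1 was the only 1 of the 9 with a match. The E-box letters CANNTG were in 61.8% of all windows and in 3 of the 9 (TCF4, TCF12 and ID2), and GATA in 45.6% of all windows and in 6 of the 9. These are matches of letters, and no binding was measured.

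Read per kb of exon (union exon lengths of GENCODE 29), the family split into abundant and rare transcripts in the control libraries. LYL1 (52.1 ± 5.45 CPM per kb, SD, n = 3) and LDB1 (51.8 ± 4.04, SD, n = 3) came first, with overlapping libraries. TCF3 (35.9 ± 1.28) and LMO2 (34.7 ± 2.23) followed, again overlapping, then TCF12 at 15.5 ± 0.183 and ID1 at 7.89 ± 0.473 CPM per kb (SD, n = 3 each). ID2 (0.518 ± 0.233), ID3 (0.353 ± 0.105) and TAL1 (0.352 ± 0.0911) could not be ordered by their libraries, and TCF4 was last at 0.000485 CPM per kb. With AE knockdown LMO2 (54.9 ± 10.0 CPM per kb, SD, n = 3) came second, after LYL1 (67.8 ± 14.9) and before LDB1 (42.1 ± 7.73), each overlapping its neighbour in the order. With LYL1 knockdown LDB1 led (53.5 ± 5.47 CPM per kb, SD, n = 3), and LYL1 (23.8 ± 8.90) came after TCF3 and LMO2, overlapping LMO2 above it (33.4 ± 11.3) and TCF12 below it (13.5). Union exon length overstates the length of the transcripts used where a gene has many isoforms, most of all for TCF4 with 27828 exon bases, so the order is approximate.

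**Figure D1:**
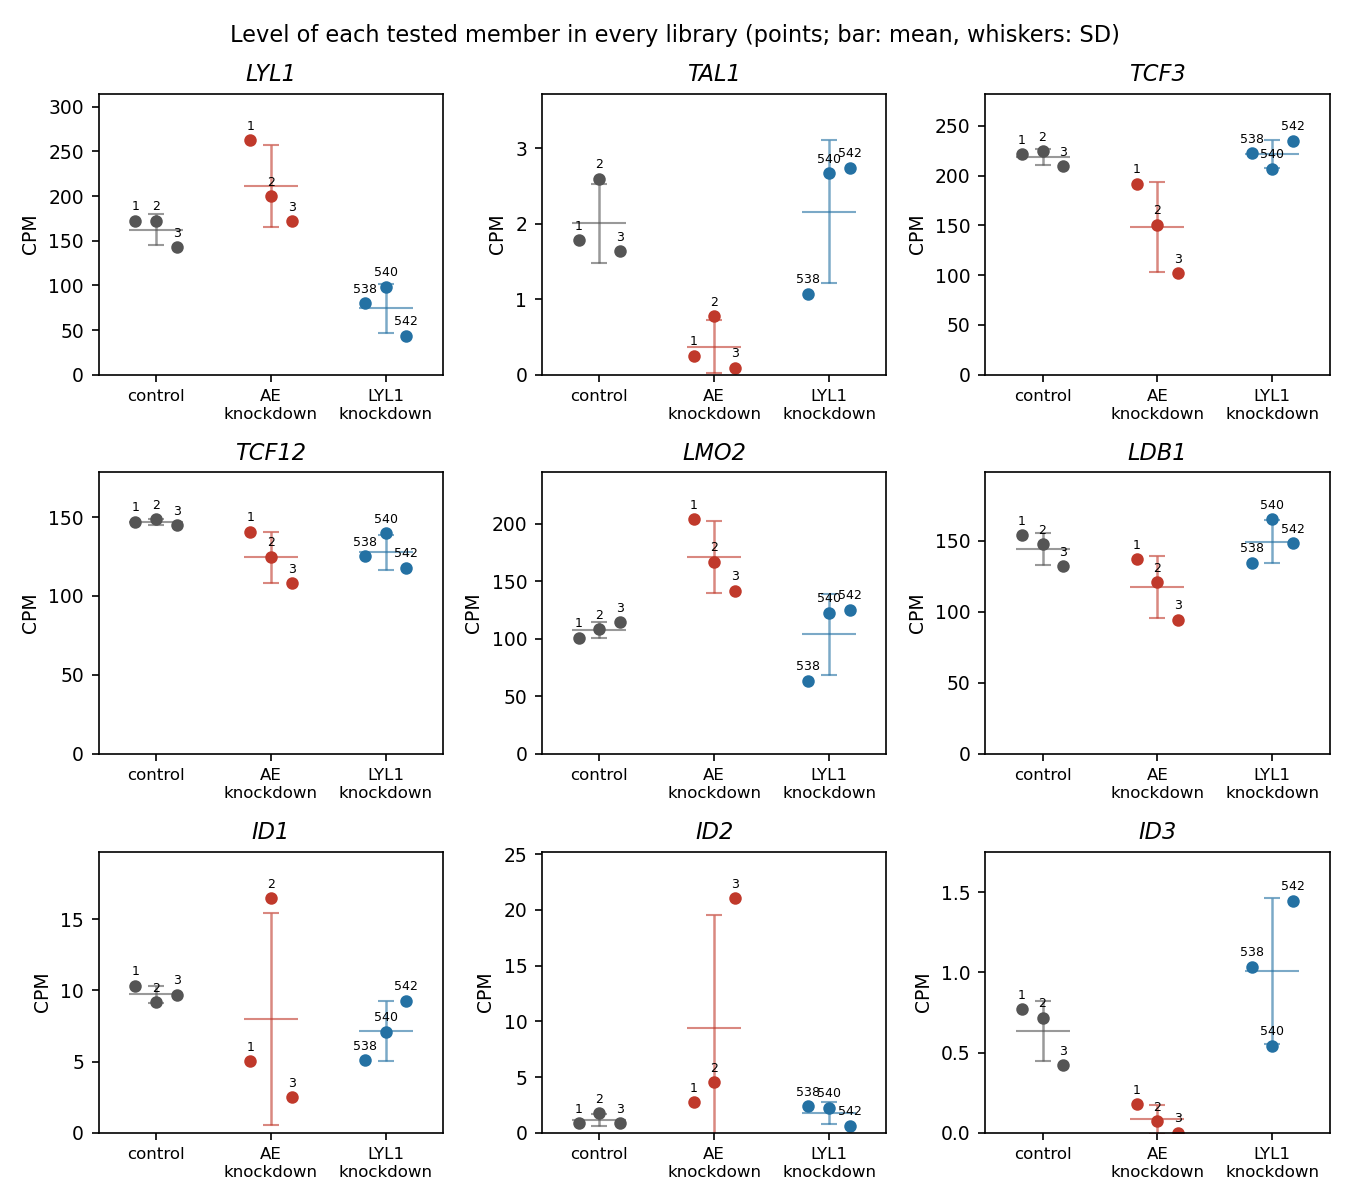
Level in CPM (vertical axis, from 0, a scale per gene) of the 9 tested genes in each library, by group, with the library's number beside its point; the bar is the mean of 3 libraries and the whiskers the SD, cut at 0. TAL1 and ID3 sit lower in all AE knockdown libraries than in any control library, ID2 sits higher, and LYL1 is lowest with shRNA 542 at 43.9 CPM.

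With AE knockdown, 3 of the 9 tested genes were called (edgeR adjusted p below 0.05), TAL1 and ID3 lower and ID2 higher, where 21.8% of all genes tested were called (11.4% higher, 10.4% lower). At an unadjusted p below 0.05 there were 5 (37.2% of all genes), and DESeq2 called 4 (22.7% of the genes with a DESeq2 adjusted p). In 6 of 9 genes the AE range lay outside the control range (2 higher, 4 lower), against 45.2% of all genes (23.1% higher, 22.2% lower). The median log2 difference of the 9 was -0.26, and that of all genes tested 0.05. With LYL1 knockdown, edgeR called none of the 9 (0.0136% of all genes, 2 in number, with 0.00678% higher and 0.00678% lower), and 1 at an unadjusted p below 0.05 (4.82% of all genes). DESeq2 called 1, LYL1 (0.127% of the genes with a DESeq2 adjusted p). The groups did not overlap in 2 of the 9, LYL1 and TCF12, both lower, against 16.6% of all genes (8.41% higher, 8.17% lower). Both comparisons use the same control libraries.

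**Figure D2:**
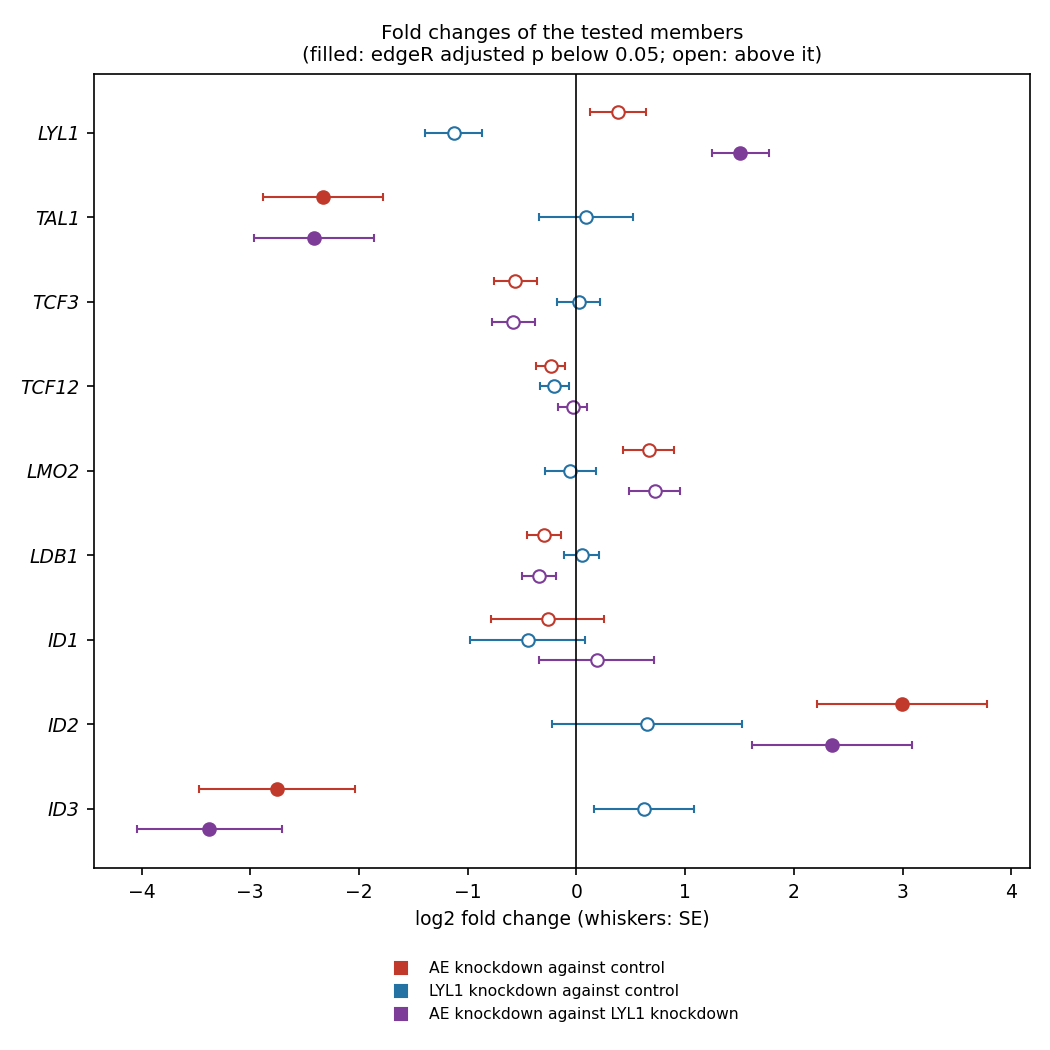
Log2 fold change (horizontal axis) with its SE (whiskers) of the 9 tested genes in the 3 comparisons, by colour; filled points have an edgeR adjusted p below 0.05. TAL1, ID2 and ID3 are filled for AE knockdown against control, no gene is filled for LYL1 knockdown against control, and LYL1, TAL1, ID2 and ID3 are filled for AE knockdown against LYL1 knockdown.

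Among the E proteins, TCF3 and TCF12 were abundant and TCF4 was all but silent. TCF3 was at 222, 224 and 210 CPM in control, 192, 150 and 102 CPM in AE knockdown 1, 2 and 3, and 222, 207 and 235 CPM with LYL1 shRNAs 538, 540 and 542. All AE libraries lay below all others. The log2 difference from control was -0.56 (SE 0.20), which missed the threshold (edgeR adjusted p = 0.0616) but passed in 4 of 22 alternatives, among them DESeq2 (adjusted p = 0.0330) and the fit without AE knockdown 1 (log2 difference -0.80, adjusted p = 0.0160). Without AE knockdown 3 the log2 difference was -0.37 (edgeR adjusted p = 0.0753). The adjusted p of TCF3 ran from 0.0160 to 0.158 over these alternatives. With LYL1 knockdown the log2 difference of TCF3 was 0.02 (SE 0.19).

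TCF12, also known as HEB, varied least of the family between control libraries, at 147, 148 and 145 CPM (a coefficient of variation of 1.18%). It was at 141, 125 and 108 CPM in AE knockdown 1, 2 and 3 and at 125, 140 and 118 CPM with LYL1 shRNAs 538, 540 and 542, so every knockdown library was below every control library. Neither log2 difference passed, -0.24 for AE (SE 0.13, edgeR adjusted p = 0.221) and -0.20 for LYL1 (SE 0.13, edgeR adjusted p = 1.00). As a share of E protein counts, TCF3 made up 60.1%, 60.2% and 59.1% in control, 57.7%, 54.6% and 48.5% in AE knockdown 1, 2 and 3, and 64.0%, 59.7% and 66.6% with LYL1 shRNAs 538, 540 and 542. The AE shares were below and the LYL1 shares mostly above the control range, shRNA 540 lying within it. TCF4 had 1 count in control 1, 3 counts with LYL1 shRNA 542 and 0 in the other 7 libraries. A count of 0 allows up to 0.106 to 0.144 CPM in these libraries, so TCF4 was at or below the limit of detection and no difference could be tested.

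LMO2, the adaptor that joins the bHLH pair to LDB1, was at 101, 108 and 115 CPM in control and at 204, 167 and 142 CPM in AE knockdown 1, 2 and 3. The AE libraries all lay above the control libraries, the first being the highest. Its log2 difference of 0.66 (SE 0.24, 1.58-fold) missed the threshold (edgeR adjusted p = 0.0656), and passed in 2 of 22 alternatives: the fit of only the 6 libraries compared (adjusted p = 0.0326) and the fit without LYL1 knockdown 538 (adjusted p = 0.0199). With LYL1 shRNAs 538, 540 and 542, LMO2 was at 63.3, 123 and 125 CPM. The first of these was the lowest value of LMO2 in any library and the other two were above all control libraries, and the log2 difference from control was -0.06 (SE 0.23, edgeR adjusted p = 1.00).

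LDB1, the partner that links LMO2 units to each other, was at 154, 148 and 132 CPM in control, 137, 121 and 94.4 CPM in AE knockdown 1, 2 and 3, and 135, 165 and 148 CPM with LYL1 shRNAs 538, 540 and 542. All groups overlapped. The log2 difference was -0.30 with AE knockdown (SE 0.16, edgeR adjusted p = 0.190) and 0.05 with LYL1 knockdown (SE 0.16). Neither LMO2 nor LDB1 passed, but the ratio of LMO2 to LDB1 counts separated the AE libraries from the rest. It was 0.655, 0.732 and 0.868 in control, 1.49, 1.38 and 1.50 in AE knockdown 1, 2 and 3, and 0.470, 0.743 and 0.844 with LYL1 shRNAs 538, 540 and 542. The ratio of LYL1 to TCF3 counts separated all 3 groups. It was 0.778, 0.769 and 0.682 in control, and 1.37, 1.33 and 1.69 in the AE libraries. In the LYL1 libraries it was 0.362, 0.475 and 0.187. LYL1 is the target of the shRNAs there, so these low values include the knockdown itself. The ratio of LYL1 to LMO2 counts did not separate the groups. Its lowest control value was 1.248, and the highest values were 1.288 with AE knockdown and 1.270 with LYL1 knockdown. These ratios are descriptions within each library, free of scaling between libraries, and were not tested.

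The 3 inhibitors behaved differently from each other with AE knockdown. ID2 rose, ID3 fell, and ID1 was scattered. ID2 had 21, 46 and 20 counts in control, 76, 128 and 437 in AE knockdown 1, 2 and 3, and 62, 58 and 13 with LYL1 shRNAs 538, 540 and 542, which is 0.850, 1.73 and 0.840 CPM, 2.72, 4.51 and 21.0 CPM, and 2.38, 2.24 and 0.648 CPM. Each AE library was above every control and LYL1 knockdown library, the third by far the most. ID2 rose by 3.00 on the log2 scale (SE 0.78, 7.98-fold, edgeR adjusted p = 0.0238). Without AE knockdown 3 the log2 difference was 1.63 and still called (edgeR adjusted p = 0.0341). The call was lost without control 1, 2 or 3 (edgeR adjusted p = 0.0926, 0.0691 and 0.0875), where the log2 difference ran from 2.82 to 3.44, and also with no low-count filter (adjusted p = 0.133) and with limma-voom (adjusted p = 0.0640). In the library with the highest ID2, RUNX1T1 was lowest and mitochondrial ribosomal RNA highest, and their part in the result was not tested. With LYL1 knockdown the log2 difference of ID2 was 0.65 (SE 0.87).

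ID3 was rarer still, with 19, 19 and 10 counts in control, 5, 2 and 0 in AE knockdown 1, 2 and 3, and 27, 14 and 29 with LYL1 shRNAs 538, 540 and 542. In CPM these were 0.769, 0.716 and 0.420, then 0.179, 0.0705 and 0 (a count of 0 allows up to 0.144 CPM in AE knockdown 3), then 1.04, 0.542 and 1.45. The AE libraries lay below all others, and the LYL1 knockdown libraries reached above the control range. ID3 fell by 2.75 on the log2 scale with AE knockdown (SE 0.72, edgeR adjusted p = 0.0205), and the size rests on few counts: it was -3.82 without AE knockdown 1. Without control 1 or control 2 the call was lost (edgeR adjusted p = 0.0731 and 0.0730, log2 difference -2.61 and -2.66). With LYL1 knockdown its log2 difference was 0.62 (SE 0.46, edgeR adjusted p = 1.00). The 4 T cell markers summed to 4.07 to 5.95 CPM in control, 0.787 to 1.23 CPM with AE knockdown and 2.09 to 5.34 CPM with LYL1 knockdown. The shift was that of 1 gene, CD3D (mean 4.24 CPM in control, 0.456 CPM with AE knockdown). CD3E had means of 0.560 and 0.515 CPM, and the other two were slightly higher with AE knockdown, CD2 at 0.0280 and 0.0354 CPM and CD5 at 0 and 0.0677 CPM. The part of CD3D in the result was not tested.

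ID1, the most abundant inhibitor in control, was at 10.3, 9.16 and 9.70 CPM there, at 5.04, 16.5 and 2.50 CPM in AE knockdown 1, 2 and 3, and at 5.11, 7.08 and 9.28 CPM with LYL1 shRNAs 538, 540 and 542. The AE libraries fell on both sides of the control range. The log2 difference was -0.26 with AE knockdown (SE 0.52, edgeR adjusted p = 0.743). It turned to 0.13 without AE knockdown 3, and to -1.34 and a call without AE knockdown 2 (edgeR adjusted p = 0.0145). With LYL1 knockdown it was -0.45 (SE 0.53, edgeR adjusted p = 1.00).

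Set against transcripts of the E proteins, ID transcripts were steady in control and spread more widely with LYL1 knockdown. LYL1 shRNAs 538 and 540 lay below the control range. There were 32.4, 31.2 and 30.9 ID counts per 1000 E protein counts in control (mean 31.5 ± 0.800, SD, n = 3), and 24.5, 28.5 and 32.2 with LYL1 shRNAs 538, 540 and 542 (28.4 ± 3.87, SD, n = 3). AE knockdown 1, 2 and 3 gave 23.9, 76.4 and 112 (70.8 ± 44.4, SD, n = 3), the first below and the other two above every other library. The makeup of the ID pool also differed between AE libraries. ID2 made up 7.12%, 14.9% and 7.66% of ID counts in control, 34.2%, 21.4% and 89.4% in AE knockdown 1, 2 and 3, and 27.9%, 22.7% and 5.70% with LYL1 shRNAs 538, 540 and 542. ID3 made up 6.44%, 6.17% and 3.83% in control, and 2.25%, 0.335% and 0% with AE knockdown. Thus AE knockdown 2 had a high ID pool made mostly of ID1 (78.2%), and AE knockdown 3 a high pool made mostly of ID2.

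**Figure D3:**
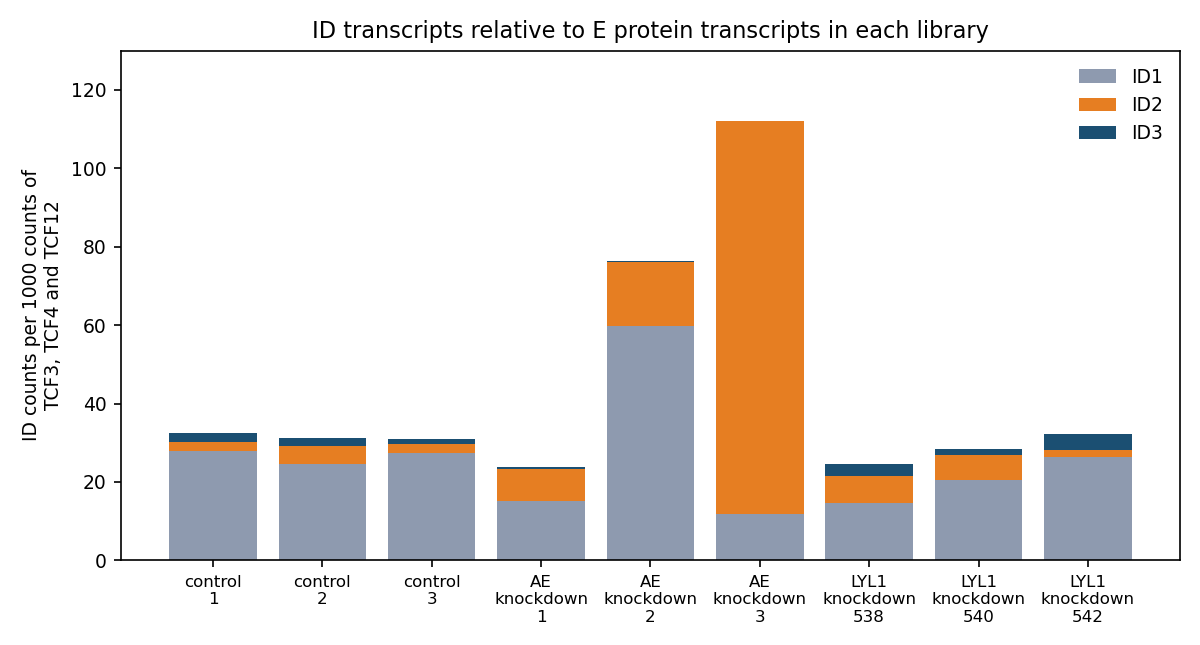
Counts of ID1, ID2 and ID3 (stacked bars) per 1000 counts of TCF3, TCF4 and TCF12 in each of the 9 libraries, 1 bar per library and no error bars. Control bars stand between 30.9 and 32.4 and are mostly ID1, while AE knockdown 2 reaches 76.4 with ID1 as the largest part and AE knockdown 3 reaches 112 with ID2 as the largest part.

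Compared directly, AE and LYL1 knockdown differed in 4 of the 9 tested genes by edgeR, against 20.4% of all genes (10.7% higher, 9.70% lower): LYL1 and ID2 were higher with AE knockdown, and TAL1 and ID3 lower. This comparison uses the same AE libraries as the one against control. At an unadjusted p below 0.05 there were 6 (36.3% of all genes), and DESeq2 called 6 (22.5% of the genes with a DESeq2 adjusted p). The libraries did not overlap in 6 of the 9 (3 higher, 3 lower), against 35.5% of all genes (18.2% higher, 17.2% lower). Each of these counts includes LYL1, the target of the LYL1 shRNAs, whose difference here includes the knockdown itself. ID3 was 10.4-fold lower with AE than with LYL1 knockdown (log2 difference -3.38, SE 0.67, edgeR adjusted p = 0.00749), and called in all of 20 alternatives. The size rests on few counts, and without AE knockdown 1 the log2 difference was -4.45. That of TAL1 was -3.50 without AE knockdown 2. ID2 was 5.10-fold higher (log2 difference 2.35, SE 0.74, edgeR adjusted p = 0.0478), but without AE knockdown 3 the log2 difference was 0.98 and not called (edgeR adjusted p = 0.142). The call of ID2 held in 9 of 21 alternatives and was lost with each single control or LYL1 knockdown library left out, where the edgeR adjusted p ran from 0.0684 to 0.140. LMO2 (log2 difference 0.72, SE 0.24, edgeR adjusted p = 0.0522) and TCF3 (-0.58, SE 0.20, edgeR adjusted p = 0.0576) missed the threshold and passed it with DESeq2 (adjusted p = 0.0332 and 0.0301). LDB1 (-0.35, edgeR adjusted p = 0.138), ID1 (0.19) and TCF12 (-0.03) did not pass.

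Likeness between genes was measured as the root mean square difference, over the 9 libraries, of log2 CPM centred on the mean of each gene. Within the family, TCF12 and LDB1 were the most alike (0.16), followed by TCF3 and LDB1 (0.19) and TCF3 and TCF12 (0.29). LYL1 was nearest to LMO2 (0.65), and TAL1 to ID3 (0.77), while TAL1 and LYL1 were 1.86 apart and ID2 and ID3 2.62 apart. Among tested genes whose log2 CPM averaged 2 or more, those nearest to LYL1 included COX6B1 (0.37), DENND11 (0.37), C15orf39 (0.38) and MFAP4 (0.38), each nearer than LMO2. For DENND11 the log2 difference with LYL1 knockdown was -0.88 (edgeR adjusted p = 0.562) and for MFAP4 -1.10 (edgeR adjusted p = 0.859). Nearest to TAL1 were SHANK3 (0.33), SV2A (0.36) and DOK4 (0.39). SHANK3, a synaptic scaffold, fell by 2.38 on the log2 scale with AE knockdown (edgeR adjusted p = 0.00483), DOK4 fell by 2.69 (edgeR adjusted p = 0.00402) and SV2A fell by 2.08 (edgeR adjusted p = 0.0204, lost without control 1, 2 or 3). Without AE knockdown 2 the log2 differences of DOK4 and SV2A were -3.40 and -2.76. ID2 lay nearest to ICAM3 (0.43), a leukocyte adhesion molecule, the lysosomal protease gene CTSS (0.56) and the proton channel gene HVCN1 (0.59). ICAM3 was at 12.3, 21.1 and 78.1 CPM in AE knockdown 1, 2 and 3 against 5.22, 6.71 and 5.08 CPM in control, the same order of AE libraries as ID2. These calls of ICAM3, CTSS and HVCN1 (log2 difference 2.70, 2.31 and 1.86) were lost without any 1 control library, and without AE knockdown 3 the differences were 1.54, 1.36 and 0.78. ID3 lay nearest to FOSL1 (0.28), MFAP2 (0.33) and PTMS (0.35), which fell by 2.15, 2.08 and 1.94 on the log2 scale (edgeR adjusted p = 0.00384, 0.00943 and 0.00998). All these distances share the same 9 libraries and their scaling, so they are a description. The genes outside the family named here were picked for likeness to LYL1, TAL1, ID2 or ID3 over these same libraries. Their directions, calls and order of libraries follow in part from that choice and are no separate evidence.

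Beyond the family, 7 lists of related genes were counted. Among 18 partners and cofactors of the complex or of AML1-ETO, 16 were tested and 8 fell with AE knockdown, none rose, and the median log2 difference was -0.58; of all genes tested, 10.4% were called lower and 11.4% higher, and their median was 0.05. In 12 of the 16 the AE libraries were below all control libraries, where 22.2% of all genes tested were. SSBP3, which protects LDB1 from degradation, went from 111, 113 and 101 CPM in control to 56.6, 56.8 and 46.2 CPM, and fell by 1.02 on the log2 scale (SE 0.14, edgeR adjusted p = 0.00210). GATA2, the GATA factor of blood progenitors, went from 75.5, 76.1 and 65.2 CPM to 31.6, 47.5 and 29.6 CPM, and fell by 0.99 (SE 0.20, edgeR adjusted p = 0.00815). AE and control libraries did not overlap in either gene. RUNX1T1, HDAC2, SP1, EP300, RUNX1 and CBFB also fell. RUNX1 counts, like those of RUNX1T1, add the fusion to the normal gene. The fusion is the target of the AE shRNAs, and both genes are counted in the 8 and in the 12 of 16. Those counts therefore include the knockdown itself. Left out in turn, control 1, 2 and 3 each left 5 calls in the list: HDAC2 and CBFB were lost without control 3, EP300 and RUNX1 without control 1 or 2, and SP1 without any 1 control, AE knockdown 1 or 2, or LYL1 knockdown 538 or 540. SSBP2 (-0.57, edgeR adjusted p = 0.0858) and KDM1A (-0.57, edgeR adjusted p = 0.0590) missed the threshold, and GATA1 and GFI1B were below the filter.

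No partner was called by edgeR with LYL1 knockdown, where the median log2 difference was -0.01. Of the 16 tested, 2 had an unadjusted p below 0.05 (4.82% of all genes tested), and DESeq2 called 0. The smallest p was that of CBFA2T3, a corepressor and paralog of RUNX1T1 that binds E proteins. It was at 15.1, 17.1 and 13.1 CPM in control, 19.9, 14.0 and 33.0 CPM in AE knockdown 1, 2 and 3, and 8.52, 10.1 and 9.43 CPM with LYL1 shRNAs 538, 540 and 542. Every LYL1 knockdown library lay below every other library. Of all genes tested, 8.17% lay below control in this way. CBFA2T3 had a log2 difference of -0.69 from control (SE 0.27, edgeR adjusted p = 0.970). RCOR1 followed (-0.31, edgeR adjusted p = 1.00), then SSBP3 (-0.18, edgeR adjusted p = 1.00). Between the knockdowns, CBFA2T3 was the only partner called higher with AE knockdown (log2 difference 1.25, SE 0.27, edgeR adjusted p = 0.0120), against 7 called lower. Of all genes tested, 10.7% were called higher and 9.70% lower. Like CBFA2T3, RCOR1 had all AE libraries above all LYL1 knockdown libraries, but it was not called (log2 difference 0.37, edgeR adjusted p = 0.0772). The counts of RUNX1T1 and RUNX1, both in this list, include the fusion that the AE shRNAs target. Of the 4 blood stem cell factors described as binding together with LYL1, TAL1 and LMO2, ERG fell with AE knockdown (log2 difference -1.18, SE 0.21, edgeR adjusted p = 0.00575), as did GATA2 and RUNX1, and FLI1 (-0.16) did not pass; 10.4% of all genes fell. ERG went from 213, 212 and 219 CPM to 90.3, 128 and 65.8 CPM. The counts of RUNX1 include the fusion that the AE shRNAs target. None of the 4 was called by edgeR with LYL1 knockdown, 0 at an unadjusted p below 0.05 (4.82% of all genes tested) and 0 by DESeq2.

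**Figure D4:**
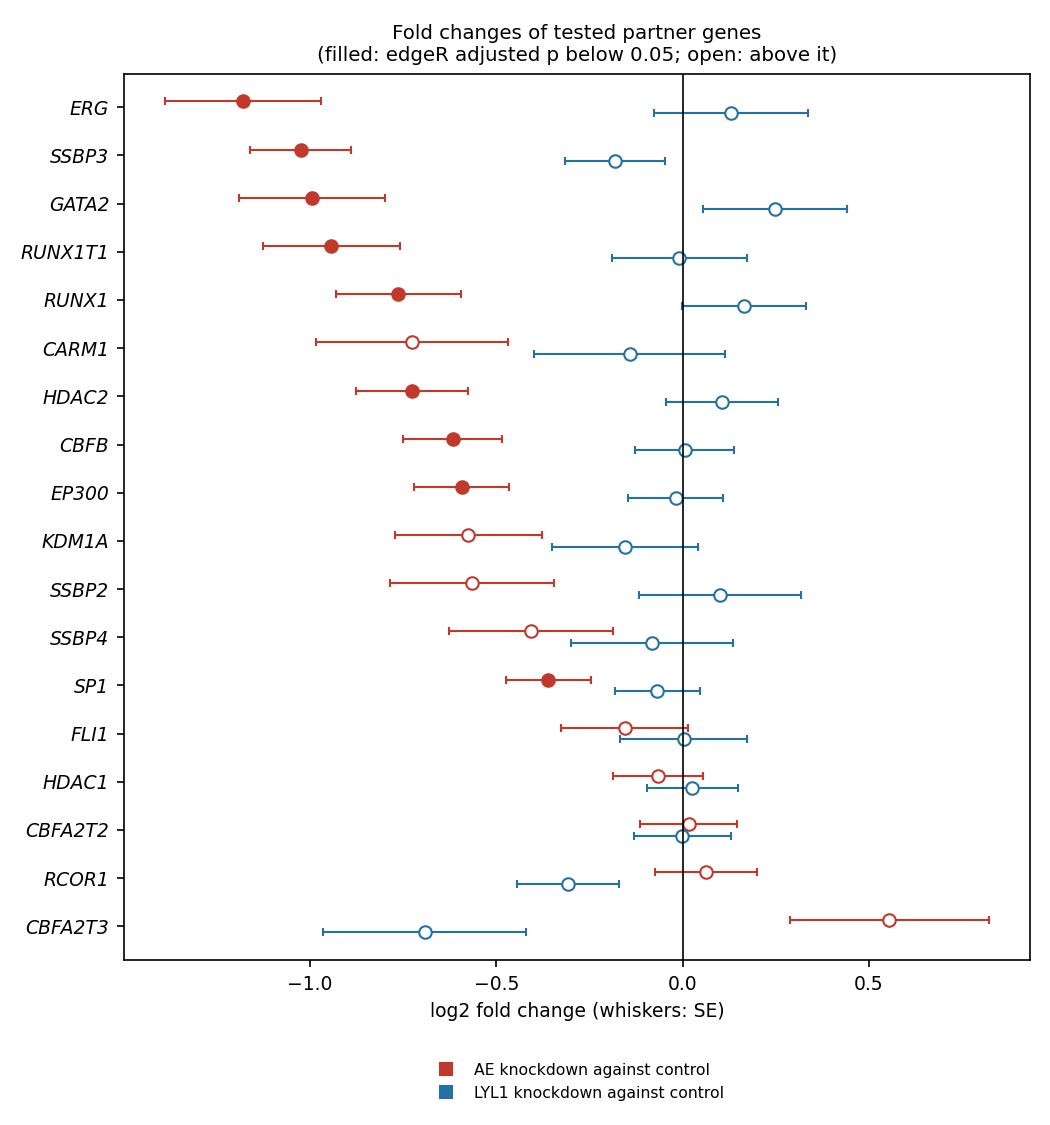
Log2 fold change (horizontal axis) with its SE (whiskers) of the tested partners, cofactors and blood stem cell factors against control, for AE knockdown and LYL1 knockdown by colour; filled points have an edgeR adjusted p below 0.05. AE points lie left of 0 for most genes, from -1.18 for ERG to 0.55 for CBFA2T3, and no LYL1 point is filled, the lowest being CBFA2T3 at -0.69.

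Other bHLH genes were counted in 2 lists. Of 24 relatives of the family (further E protein partners and the other LMO, LDB and ID genes), 3 were tested, LMO4, MESP1 and NHLH1, and none was called in any comparison. Of all genes tested, 21.8% were called with AE knockdown, 0.0136% with LYL1 knockdown and 20.4% between the knockdowns. At an unadjusted p below 0.05 there were 0 of the 3, and DESeq2 called 0. Of 30 bHLH genes of other classes, 24 were tested. With AE knockdown 1 rose and 3 fell, with a median log2 difference of 0.06, where 11.4% of all genes rose and 10.4% fell. MXD3, a MAX partner that opposes MYC, rose by 0.76 on the log2 scale (edgeR adjusted p = 0.0254, from 12.9, 17.1 and 14.9 to 21.6, 23.3 and 31.6 CPM), a call lost without any 1 control library or AE knockdown 3 (then 0.57, edgeR adjusted p = 0.0605). AHR, a ligand-activated receptor, fell by 1.24 (edgeR adjusted p = 0.0130), MYCN fell by 1.95 (edgeR adjusted p = 0.0156, below 1.2 CPM in every control library) and HES1, a Notch target, fell by 1.54 (edgeR adjusted p = 0.0383). The calls of AHR and MYCN were lost without control 2 or 3, and that of HES1 without any 1 control or AE library or LYL1 knockdown 538 (edgeR adjusted p = 0.0528 to 0.111). Without control 1, 2 and 3 the calls in this list were 2, 0 and 0. With LYL1 knockdown edgeR called none of the 24 (1 at an unadjusted p below 0.05, against 4.82% of all genes, and 0 by DESeq2). USF2 had the smallest p (log2 difference 0.46, edgeR adjusted p = 0.929).

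BMP and TGF-beta signalling drives ID genes in many cells. Of its 21 listed genes 16 were tested, and SMAD1 alone was called with AE knockdown, where 21.8% of all genes were. This signal carrier of BMP receptors fell by 0.73 on the log2 scale (edgeR adjusted p = 0.0430), a call lost without any 1 control library, AE knockdown 3 or LYL1 knockdown 540, while without AE knockdown 2 the list had 3 calls. The median log2 difference was -0.02. SMAD2 (0.48, edgeR adjusted p = 0.0846) and ENG (-0.76, edgeR adjusted p = 0.0916) missed the threshold. With LYL1 knockdown edgeR called none of the 16 (2 at an unadjusted p below 0.05, against 4.82% of all genes, and 0 by DESeq2). The smallest p was that of SMURF2, a ubiquitin ligase for SMAD proteins and receptors, at 63.7, 62.7 and 65.5 CPM against 48.6, 45.6 and 45.0 CPM in control. Its libraries did not overlap (8.41% of all genes tested were higher in this way), but the log2 difference of 0.46 (SE 0.11) had an edgeR adjusted p of 0.562. TGFBR2 followed (0.48, edgeR adjusted p = 0.895).

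Of 17 genes described as targets of E proteins, 10 were tested, and with AE knockdown 1 rose and 2 fell (median log2 difference -0.34), where 11.4% of all genes rose and 10.4% fell. FOXO1 fell by 1.00 on the log2 scale (SE 0.17, edgeR adjusted p = 0.00507), from 13.6, 12.7 and 13.5 to 6.12, 6.76 and 7.07 CPM, with little spread in either group. CDKN1A, a cell cycle inhibitor, fell by 3.20 (SE 0.76, edgeR adjusted p = 0.0161), from 1.74, 2.45 and 1.55 to 0.0715, 0.493 and 0 CPM; without AE knockdown 2 the difference was -5.39, and without control 2 the call was lost. The chemokine receptor CXCR4 rose by 2.83 (SE 0.67, edgeR adjusted p = 0.0173), from 5.63, 6.90 and 5.92 to 27.4, 11.6 and 92.5 CPM. Without AE knockdown 3 the difference of CXCR4 was 1.65, and the call was lost without any 1 control library, so that without control 2 the list had 1 call. With LYL1 knockdown edgeR called none of the 10 (2 at an unadjusted p below 0.05, against 4.82% of all genes, and 0 by DESeq2). CDKN1A had the smallest p (log2 difference 1.39, edgeR adjusted p = 0.895), at 5.30, 2.21 and 7.83 CPM with shRNAs 538, 540 and 542.

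Of 23 erythroid and megakaryocyte genes described as targets of the TAL1, LMO2 and LDB1 complex, 14 were below the filter. Of the 9 tested, 1 rose and 2 fell with AE knockdown (median log2 difference 0.01), where 11.4% of all genes rose and 10.4% fell. ZFPM1, a cofactor of GATA factors, went from 5.51, 4.71 and 5.38 to 2.18, 2.92 and 1.44 CPM, and fell by 1.23 on the log2 scale (SE 0.27, edgeR adjusted p = 0.0116). The AE and control libraries of ZFPM1 did not overlap. NFE2, a subunit of a factor of megakaryocytes and red cells, rose by 5.01 (SE 0.93, edgeR adjusted p = 0.00755), from 0.972, 1.17 and 1.18 to 25.4, 3.56 and 79.2 CPM. The AE libraries of NFE2 differed widely, and without the third the difference was 3.69. With LYL1 knockdown edgeR called none of the 9, with 0 at an unadjusted p below 0.05 (4.82% of all genes tested) and 0 by DESeq2.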

How the data were processed

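RNA sequencing counts of 9 Kasumi-1 libraries in 3 groups of 3 were used as deposited by the authors: whole-number counts per gene symbol, not normalised. The submitters' processing notes name the build hg19, DESeq2 1.26.0, featureCounts 2.0.1, SAMtools 1.7, HISAT2 2.2.0 and fastp 0.20.1, but not what each was used for. Annotation, strand setting and treatment of multi-mapping reads are not given in the sources used here. Without a strand setting, reads of a gene and an overlapping antisense gene cannot be told apart: this touches TAL1 (AL135960.1, 0 counts), ID2 (ID2-AS1, 28 counts over all libraries) and TCF4. In 6 files 5 gene names carried a decimal suffix, which was removed.

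Genes were kept with filterByExpr by group, scaled with TMM and tested by quasi-likelihood F in edgeR 4.0.16 (limma 3.58.1, R 4.3.3). One model of group means held all 9 libraries, with robust dispersions, which leaves 6 residual degrees of freedom. Benjamini-Hochberg adjustment ran over 14741 genes, with calls below 0.05. The SE is the log2 fold change divided by the square root of F; the prior count was 0.125. Intervals (95%, exact) and the limit at a count of 0 (3 counts) cover counting error only. The fit was tested on simulated counts. Promoter windows come from RefSeq (GRCh38.p14) and exon lengths from GENCODE 29, which may not be the authors' annotation.

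The members and gene lists were chosen with earlier results of these data known. Named genes are the members, RUNX1T1, 3 genes with the smallest adjusted p per list and comparison against control, the 5 genes nearest to LYL1 and 3 nearest to each other member called against control; HDAC2, SP1, EP300, CBFB, SSBP2, KDM1A, FLI1, HES1 and the cell type markers were named after their values were seen. Some genes that the rule takes are not reported here. Alternatives were other scalings, no or a strict filter (50 counts in 3 libraries), DESeq2 1.42.0, limma-voom with a pooled or a per-group spread, other quasi-likelihood settings, fits without the third group, a threshold of 0.01, a block for replicate numbers, and each library left out once. The list counts without each library were chosen after seeing the data.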

Additional observations from a re-analysis of the deposited data

How the results depend on the processing

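Of the 9 tested genes, 3 were called with AE knockdown, and 0 to 4 with 1 library left out: 0 without control 2 and 1 without control 1, where calls over all genes also fell from 3214 to 957 and 1096. An adjusted p below 0.01 left 0 with AE knockdown and 2 in the comparison of both knockdowns (main count 4), where limma-voom with a spread per group also left 2. With LYL1 knockdown, DESeq2 called 1 (LYL1, log2 difference -1.14, adjusted p = 0.0336) against 0 with edgeR. The other scalings and tests kept each count within 1.5 times. With library size alone, the calls over all genes with LYL1 knockdown were 4 higher and 1 lower, against 1 and 1. Same-numbered control and AE libraries showed little common variation (correlation over genes 0.04, -0.01 and 0.01). The labels do not say if the numbers are paired, and so few libraries cannot settle it. A replicate block called 2 of the 9 and 1629 genes in all, with ID2 lost (2.53, edgeR adjusted p = 0.0526), and the cause was not tested.

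Changes of sign were seen only in differences that were not called. With 1 library left out, ID1 with AE knockdown ran from -1.34 to 0.13. With LYL1 knockdown TAL1 ran from -0.12 to 0.42, TCF3 from -0.022 to 0.064, LDB1 from -0.033 to 0.12 and LMO2 from -0.21 to 0.20. Between the knockdowns TCF12 ran from -0.14 to 0.049 and ID1 from -0.89 to 0.59. With limma-voom, pooled and per group, TAL1 was at -0.012 and -0.016 with LYL1 knockdown and ID1 at -0.15 and -0.14 between the knockdowns; with no filter TCF3 was at -0.0021 with LYL1 knockdown. The cause was not tested. With 3 libraries a group and TAL1, ID2 and ID3 at low counts in most libraries, depth limits the size of their fold changes, and TCF4 cannot be compared.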

Other observations

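The nearest protein-coding genes on each side of the called members in RefSeq (GRCh38.p14) were looked up after the results were seen. Noncoding genes and genes with few counts in these libraries were passed over, so those named need not be adjacent. Beside TAL1, STIL had a log2 difference of -0.32 with AE knockdown (edgeR adjusted p = 0.265) and EFCAB14 rose by 0.51 (adjusted p = 0.0220, lost without any 1 control library), while TAL1 fell by 2.33. Beside ID2, RNF144A (0.15, edgeR adjusted p = 0.694) and KIDINS220 (-0.08, edgeR adjusted p = 0.671) were not called. Beside ID3, E2F2 (-0.67, edgeR adjusted p = 0.0890) and RPL11 (0.47, edgeR adjusted p = 0.131) were not called. The neighbours of LYL1, TRMT1 and NFIX, had log2 differences of -0.10 and -0.04 with LYL1 knockdown, where LYL1 was at -1.13. With AE knockdown NFIX fell by 0.98 (edgeR adjusted p = 0.0318), a call lost without control 1, 2 or 3 or AE knockdown 2.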
